A study of Mus musculus with 9 samples.

Results

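The 3 subunit genes of C1q, C1qa, C1qb and C1qc, were followed in cells sorted as microglia, the resident macrophages of the brain, after a transient ischemic attack (TIA). They were taken as the rows of these names among the 757 genes of the panel, so 3 of 757 genes were members, and the rule sets no threshold on their values. Transcripts were counted on an nCounter instrument, which counts single barcoded probes in one lane per sample without amplification. Wild-type C57BL6/J mice, 10 to 12 weeks old in the study's methods and male by its legend, had a 5 min occlusion of the middle cerebral artery with a filament (TIA) or the same operation without the filament (Sham). Sorted cells were collected 24 h (TIA 24h) or 3 d (TIA 3d) after TIA, or from Sham animals, with 3 animals per group and 3 lanes, taken here as 1 lane per animal. All animals were perfused with heparin in saline, and all brains went into a solution with the transcription inhibitor actinomycin D before papain dissociation. The time at which Sham animals were sampled was not given in the sources used here. The sort kept CD45+CD11b+ cells that excluded the dead-cell dye 7-AAD, a gate that also admits border macrophages and blood myeloid cells and that the methods call microglia-like.

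C1q is the recognition molecule of the classical complement pathway. Each molecule is built of trimers of an A, a B and a C chain, the products of C1qa, C1qb and C1qc, so the 3 chains are needed together. When bound to antibody, debris or synapses it activates the proteases C1r and C1s and in turn C4 and C3, and tagged material is taken up through receptors such as CR3 on phagocytes. Microglia are the main source of C1q in the brain and are known for C1q-dependent pruning of synapses.

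The genes lie next to each other on mouse chromosome 4 in the order C1qb, C1qc, C1qa, and the RefSeq gene table (GRCm38.p6) holds 3 genes in that span, the members themselves. Promoter windows were given for C1qb and C1qc, and the 250 bases before each start are shown because transcripts of these neighbouring genes moved together below. Both windows are on the minus strand, C1qb at chr4:136886201-136886450 and C1qc at chr4:136892915-136893164, written 5′ to 3′ along the gene. Capitals mark GAGGAA or its reverse complement TTCCTC, the core bound by ETS factors such as PU.1, the master regulator of macrophages.
C1qb: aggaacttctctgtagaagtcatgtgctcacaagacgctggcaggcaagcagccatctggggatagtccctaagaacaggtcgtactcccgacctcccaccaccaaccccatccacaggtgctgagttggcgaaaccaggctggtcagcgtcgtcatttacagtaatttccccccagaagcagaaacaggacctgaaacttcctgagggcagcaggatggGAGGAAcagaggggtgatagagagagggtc
C1qc: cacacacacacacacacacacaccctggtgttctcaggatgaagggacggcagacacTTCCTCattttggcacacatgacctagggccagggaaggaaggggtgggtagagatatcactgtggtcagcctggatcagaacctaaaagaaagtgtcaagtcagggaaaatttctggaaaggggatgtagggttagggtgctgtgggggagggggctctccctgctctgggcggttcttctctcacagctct
C1qb held GAGGAA on its own strand, 30 to 25 bases before the start, and C1qc held it on the opposite strand, 193 to 188 bases before the start. Of 32851 mouse promoter windows of 250 bases, 23.3% held this motif on either strand. TGCTGA, the core of a MAF site, was found in C1qb only, 131 to 126 bases before the start, and in 16.1% of all windows. TATAAA was found in neither window and in 12.4% of all windows. The motifs do not overlap each other, and a match is a run of letters, not a measured binding site.

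The recovered lane totals ranged from 29200 to 62883 counts at TIA 3d, from 7248 to 10929 at TIA 24h and from 6560 to 25582 in Sham, a 9.59-fold span. No lane of Sham or TIA 24h reached the depth of any TIA 3d lane. The median gene had 8 to 22 counts, and the table holds no control probes from which the background of a lane could be read. The labels give a sort of 1000 to 1500 cells and a load of 65 ng RNA, but no cell number for a lane, so fewer microglia in a sort and less RNA per cell cannot be told apart in any result here. The 3 animals of a group limit the precision of each mean.

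C1q probes were among those with the most counts in every lane, on a scale that also depends on the efficiency of each probe. Each member ranked among the top 13 genes by count in each of the 9 lanes, C1qb was the gene with the most counts in TIA 3d replicates 1 and 3, and C1qc was the top gene in Sham replicate 3 and TIA 24h replicate 2. The counts of the 3 genes together made up 8.61% (exact 95% binomial interval 8.27 to 8.96), 3.73% (3.43 to 4.04) and 1.19% (0.941 to 1.48) of all counts in Sham replicates 1 to 3. They made up 3.13% (2.81 to 3.47), 1.75% (1.48 to 2.07) and 1.38% (1.12 to 1.68) at TIA 24h. At TIA 3d they made up 12.2% (11.9 to 12.5), 8.86% (8.54 to 9.19) and 12.6% (12.3 to 12.8). These intervals cover counting error only. The mean share was 11.2% ± 2.04 (SD, n = 3) at TIA 3d, 4.51% ± 3.77 in Sham and 2.09% ± 0.92 at TIA 24h, so Sham had the widest spread and its highest lane lay close to the lowest TIA 3d lane.

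C1qa, which encodes the A chain, had 532, 153 and 22 counts in Sham replicates 1 to 3. At 24 h after TIA it had 84, 31 and 32 counts, and after 3 d 1574, 640 and 1975. As deposited log2 values, scaled per lane by the authors, these were 8.99, 7.38 and 5.43 for the Sham animals, 7.05, 5.84 and 5.92 after 24 h, and 9.79, 9.09 and 10.08 after 3 d. The TIA 3d values were the 3 highest, TIA 24h lay inside the range of Sham, and Sham replicates 1 and 3 differed from each other more than the TIA 3d mean differed from the Sham mean.

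C1qb, which encodes the B chain, had 833, 198 and 24 counts in Sham, 162, 48 and 40 after 24 h and 2382, 965 and 2963 after 3 d. Its log2 values were 9.64, 7.76 and 5.56 in Sham, 7.996, 6.47 and 6.24 after 24 h, and 10.39, 9.69 and 10.67 after 3 d. The order of the lanes was close to that of C1qa, with Sham replicate 1 just under TIA 3d replicate 2.

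C1qc, which encodes the C chain, had 838, 204 and 32 counts in Sham, 96, 60 and 28 after 24 h and 2326, 983 and 2958 after 3 d. Its log2 values were 9.65, 7.80 and 5.97 in Sham, 7.24, 6.79 and 5.73 after 24 h, and 10.35, 9.71 and 10.66 after 3 d. For each of the 3 genes the group means thus had the order TIA 3d, Sham, TIA 24h, and the neighbours Sham and TIA 24h overlapped.

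**Figure D1:**
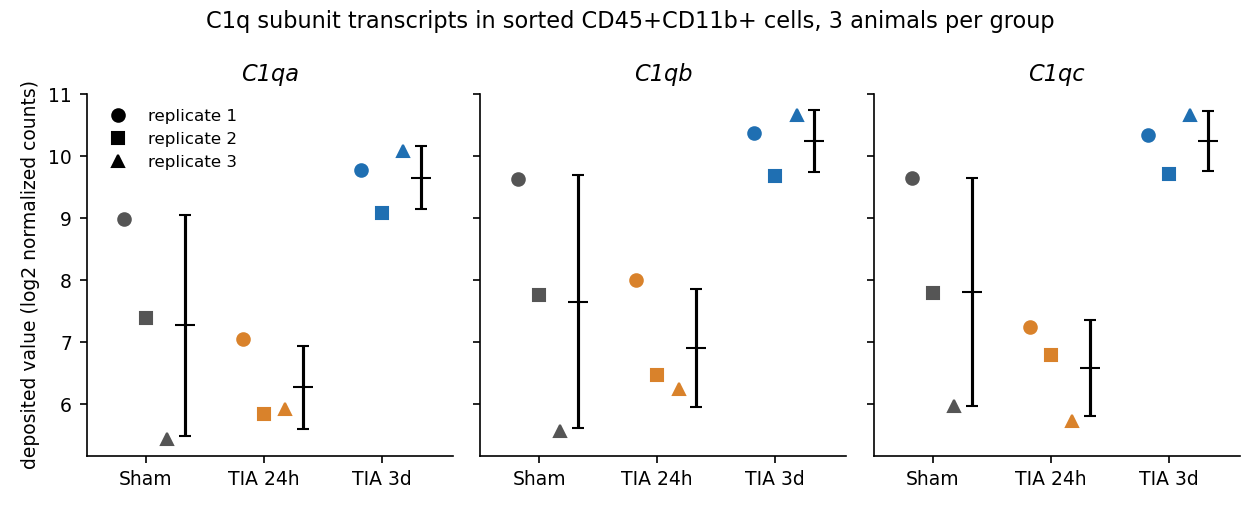
Deposited log2 normalized counts (y axis) of C1qa, C1qb and C1qc in the 3 animals of each group (x axis), with one marker shape per replicate number and the group mean ± SD as a bar beside the points. Sham spreads from 5.43 to 9.65 over the 3 genes, TIA 24h lies between 5.73 and 7.996, and TIA 3d lies between 9.09 and 10.67.

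The comparison of TIA 3d with TIA 24h asked whether C1q transcripts changed between the sampled times after TIA, and it was the comparison in which the members passed the test. C1qa was 10.4-fold higher at TIA 3d (log2 difference 3.38, SE 0.72, 95% interval 1.83 to 4.94, limma adjusted p = 0.0229). C1qb was 10.1-fold higher (3.34, SE 0.82, interval 1.58 to 5.10, limma adjusted p = 0.0245), and C1qc was 12.6-fold higher (3.65, SE 0.74, interval 2.05 to 5.26, limma adjusted p = 0.0229). So 3 of 3 subunits rose, where 11.6% of the 757 genes were called higher in this comparison, and the members ranked 7, 8 and 5 by size of rise. The lowest TIA 3d value lay above the highest TIA 24h value by 2.04, 1.69 and 2.47 on the log2 scale for C1qa, C1qb and C1qc, and 22.1% of all genes had their 3 TIA 3d values above the 3 at TIA 24h.

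Depth moved with this difference. With the log2 lane total as a covariate, the differences between TIA 3d and TIA 24h became -0.49 for C1qa, -1.12 for C1qb and -0.28 for C1qc (limma adjusted p from 0.947 to 0.987). This total includes the C1q counts themselves, up to 12.6% of a lane. Since all TIA 3d lanes were deeper than all TIA 24h lanes, depth and time point cannot be told apart. Under lane-total scaling of the counts the members still passed, at 2.44, 2.39 and 2.71 (limma adjusted p from 0.0111 to 0.0175), while the median gene shifted to -1.19 and 34 genes were called higher and 310 lower, against 88 and 57 as deposited. Quantile normalization left 0.45, 0.34 and 0.59, none past the threshold. When any one of 4 lanes was left out, TIA 24h replicates 2 and 3 and TIA 3d replicates 1 and 3, the differences stayed between 3.01 and 3.76 but missed the threshold (limma adjusted p from 0.0617 to 0.0931). So did all 3 members in an ordinary linear model without the moderation of limma (adjusted p from 0.0999 to 0.118) and C1qb with an intensity trend and robust prior (adjusted p = 0.0645).

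The comparison of TIA 3d with Sham gave higher means that did not pass the test. The differences were 2.38 for C1qa (SE 0.72, interval 0.83 to 3.94, limma adjusted p = 0.158), 2.59 for C1qb (SE 0.82, interval 0.83 to 4.35, adjusted p = 0.16) and 2.43 for C1qc (SE 0.74, interval 0.83 to 4.04, adjusted p = 0.158), which correspond to 5.22-, 6.04- and 5.41-fold. Of all genes, 0% were called in this comparison by limma (0 of 757), with 148 at an unadjusted p under 0.05. All 3 members had their 3 TIA 3d values above the 3 Sham values, as did 15.1% of all genes. The gap was only 0.10, 0.04 and 0.06 on the log2 scale, and the groups overlapped once each lane was centred on its median. The call depended on how the Sham lanes were treated. Without Sham replicate 1, limma called 73 of the 757 genes higher and 11 lower. The member differences were then 3.25, 3.59 and 3.36 and passed (limma adjusted p = 0.00965 for each). Without Sham replicate 3, the shallowest lane, they were 1.46, 1.55 and 1.52 (adjusted p = 0.422), with the lane total as a covariate they were -0.42, -0.64 and -0.41 (adjusted p = 0.973), and under quantile normalization 0.61, 0.68 and 0.041 (adjusted p from 0.569 to 0.983). With lanes weighted by their agreement with the group, the member differences were 2.32, 2.53 and 2.44 and passed (limma adjusted p from 0.00544 to 0.00626). The weights were 0.45, 2.74 and 0.34 for Sham replicates 1 to 3, so the Sham mean rested mostly on replicate 2, and 2.89 for TIA 3d replicate 1. This fit called 174 of the 757 genes, 109 higher and 65 lower.

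The comparison of TIA 24h with Sham gave lower means, by -1.001 for C1qa (SE 0.72, interval -2.56 to 0.55, limma adjusted p = 0.742), -0.75 for C1qb (SE 0.82, interval -2.51 to 1.01, adjusted p = 0.817) and -1.22 for C1qc (SE 0.74, interval -2.82 to 0.38, adjusted p = 0.722). The groups overlapped for each gene, and 0% of the 757 genes were called (0 by limma, 57 at an unadjusted p under 0.05). The intervals reach from a fall to a rise, so these lanes cannot place the level at 24 h relative to Sham. Without Sham replicate 1 the value for C1qb turned to 0.25, and without Sham replicate 3 the differences were -1.92, -1.80 and -2.14 (limma adjusted p from 0.117 to 0.185). Over the 3 groups together, the moderated F test in limma gave an adjusted p of 0.0533 for each member, and 0% of all genes passed it.

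**Figure D2:**
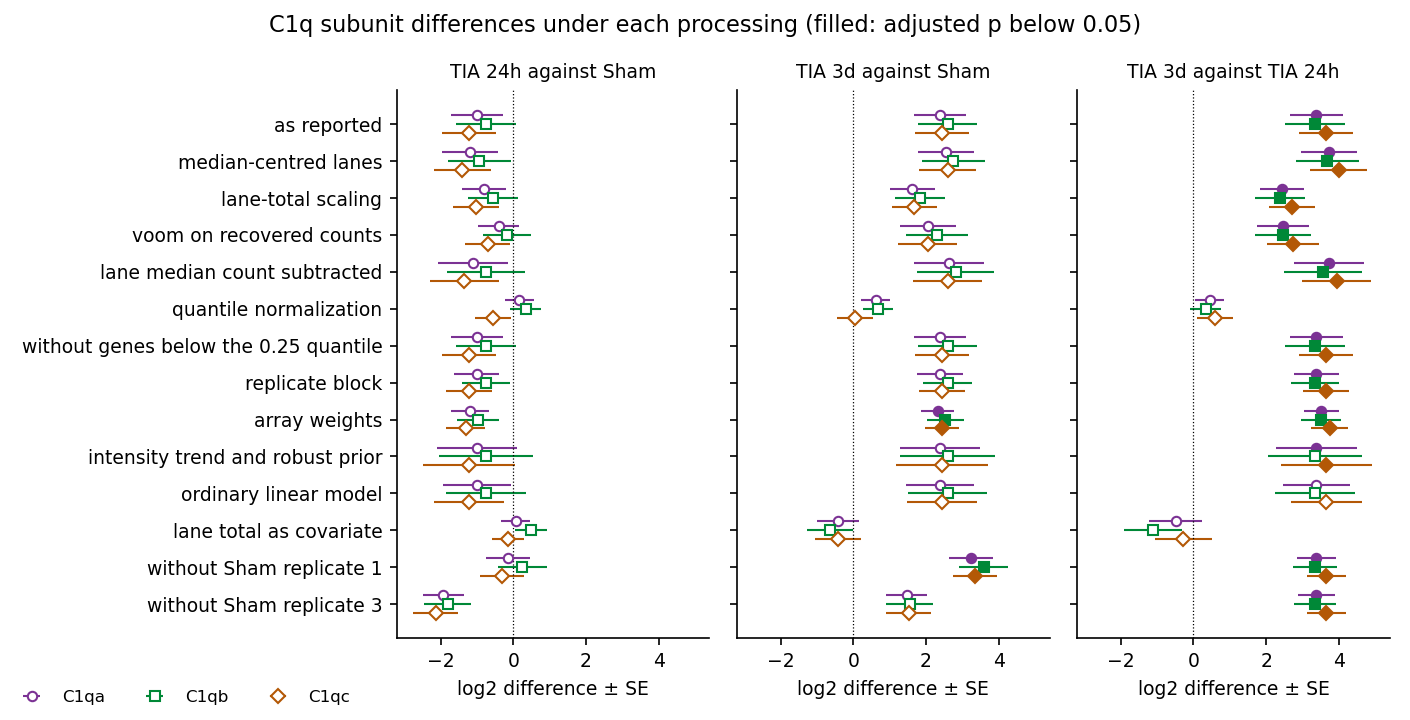
Log2 difference ± SE (x axis) of C1qa, C1qb and C1qc in the 3 comparisons under each processing (y axis), with filled markers where the limma adjusted p was below 0.05. Between TIA 3d and TIA 24h the differences stay between 2.39 and 3.94 under lane-total scaling, voom and subtraction of the lane median count, fall to 0.34 to 0.59 under quantile normalization and below 0 with the lane total as a covariate.

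The member values followed the depth of the lane. Against the log2 counts of the other 754 genes, the log2 value of C1qa had r = 0.987 over the 9 lanes (exact permutation p = 5.51e-06, adjusted over the 3 genes 1.65e-05), with rho = 0.983 (exact permutation p = 4.96e-05, adjusted 4.96e-05). C1qb had r = 0.973 (exact permutation p = 3.58e-05, adjusted 3.58e-05) and C1qc r = 0.981 (exact permutation p = 1.1e-05, adjusted 1.65e-05), both with the same rho and its p. When the 2 lanes at the greatest distance from the median depth were left out, TIA 3d replicates 1 and 3, r was 0.993, 0.974 and 0.984 over 7 lanes. Within the 6 lanes of Sham and TIA 24h, r was 0.990, 0.964 and 0.977 (exact permutation p of 0.00278, 0.00556 and 0.00278). TIA 3d alone has too few lanes for a value. Sham replicate 1 and TIA 3d replicate 2, the neighbours in depth at 25582 and 29200 counts, were compared after the values had been seen. Their counts were 532 and 640 for C1qa, 833 and 965 for C1qb and 838 and 983 for C1qc, and their C1q shares were 8.61% and 8.86%. With 1 lane of each group these values are a description and say nothing of Sham against TIA 3d.

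**Figure D3:**
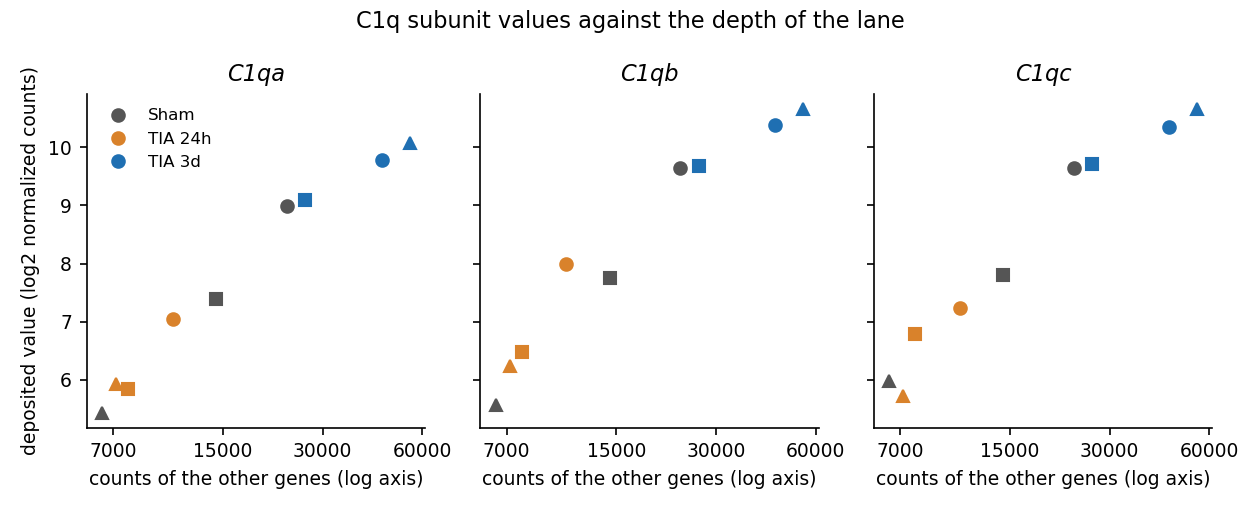
Deposited log2 value of each subunit gene (y axis) against the counts of the 754 other genes in the same lane (x axis, log scale), with colours for groups and marker shapes for replicates 1 (circle), 2 (square) and 3 (triangle). The 9 lanes lie along one line for each gene, with the 3 TIA 3d lanes deepest and Sham replicate 1 next to TIA 3d replicate 2.

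The ratios between the subunits within a lane do not depend on the lane's scaling. Probes differ in efficiency, so a ratio of counts is not a ratio of mRNA molecules and only its change from lane to lane was read. In the TIA 3d lanes the ratios hardly varied. C1qa/C1qb was 0.661, 0.663 and 0.667 in replicates 1 to 3, C1qc/C1qb was 0.976, 1.02 and 0.998, and C1qa/C1qc was 0.677, 0.651 and 0.668. Of all C1q counts in these lanes, 24.7% to 25.1% were C1qa, 37.3% to 37.9% C1qb and 37.0% to 38.0% C1qc.

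In Sham, C1qa/C1qb was 0.639, 0.773 and 0.917 in replicates 1 to 3. C1qc/C1qb was 1.01, 1.03 and 1.33, and C1qa/C1qc was 0.635, 0.750 and 0.688. The ratios of Sham replicate 3 rest on 22 to 32 counts per gene, with exact 95% counting intervals of 0.490 to 1.71 for C1qa/C1qb and 0.761 to 2.37 for C1qc/C1qb.

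At TIA 24h, C1qa/C1qb was 0.519, 0.646 and 0.800, C1qc/C1qb was 0.593, 1.25 and 0.7, and C1qa/C1qc was 0.875, 0.517 and 1.14. For C1qc/C1qb, the interval of TIA 24h replicate 1 was 0.455 to 0.767, which overlapped those of TIA 24h replicate 3, 0.416 to 1.16, and Sham replicate 3, and lay below those of the other 6 lanes, TIA 24h replicate 2 at 0.841 to 1.87 included. These intervals hold counting error and no spread between animals, so they do not compare animals. This lane had 96 counts of C1qc against 162 of C1qb, and C1qb made up 47.4% (exact 95% interval 42.0 to 52.8) of its C1q counts. Over the groups, the 3 ratios did not pass an exact permutation test of the F statistic over the 280 splits, whose smallest p is 0.00357. The exact permutation p was 0.489 for C1qa/C1qb, 0.293 for C1qc/C1qb and 0.661 for C1qa/C1qc, each 0.661 after adjustment over the 3 ratios.

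As log2 differences, the group means of C1qa/C1qb differed by -0.25 (SE 0.24) between TIA 24h and Sham, by -0.21 (SE 0.15) between TIA 3d and Sham and by 0.04 (SE 0.18) between TIA 3d and TIA 24h. For C1qc/C1qb they differed by -0.47 (SE 0.35), -0.16 (SE 0.13) and 0.31 (SE 0.33), and for C1qa/C1qc by 0.22 (SE 0.34), -0.05 (SE 0.07) and -0.27 (SE 0.34). The 9 differences all had overlapping groups and two-sided exact permutation p values from 0.2 to 0.7, in a design that cannot go below 0.1. Each of the 9 moved by over 1.5 times when a single lane was left out. In the 5 lanes deeper than TIA 24h replicate 1, a choice made after the values were seen, C1qa/C1qb spanned 0.639 to 0.773, C1qc/C1qb 0.976 to 1.03 and C1qa/C1qc 0.635 to 0.750. In the other 4 lanes they spanned 0.519 to 0.917, 0.593 to 1.33 and 0.517 to 1.14.

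**Figure D4:**
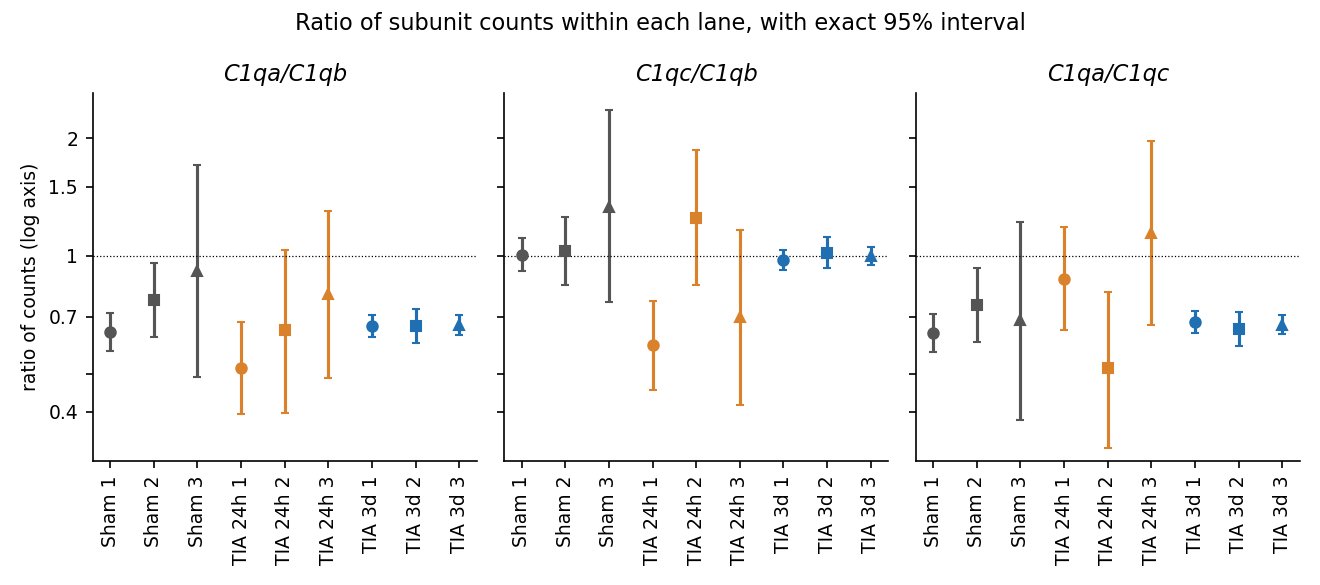
Ratio of the counts of each pair of subunit genes (y axis, log scale) in each of the 9 lanes (x axis), with exact 95% intervals that cover counting error only and a dotted line at 1. The TIA 3d lanes lie within 0.661 to 0.667 for C1qa/C1qb and 0.976 to 1.02 for C1qc/C1qb, the intervals of the shallow lanes are wide, and C1qc/C1qb of TIA 24h replicate 1 is 0.593.

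Microglial genes other than C1q also rose between 24 h and 3 d, so C1q was set against them within each lane. Of 16 listed genes of homeostatic microglia, 12 were measured, and 11 of these 12 rose from TIA 24h to TIA 3d, where 11.6% of all genes were called higher, with a median log2 difference of 2.85 beside -0.25 over all genes. Their summed counts made up 2.94% to 19.4% of a lane in Sham, 1.75% to 4.35% after 24 h and 8.42% to 15.8% after 3 d. P2ry12, the purinergic receptor that marks microglia, had 742, 197 and 13 counts in Sham, 38, 27 and 12 after 24 h, and 652, 596 and 438 after 3 d.

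The mean log2 value of the 3 subunits minus the mean of the 12 genes was 1.16, 0.92 and 0.74 in Sham replicates 1 to 3. After 24 h it was 1.74, 1.10 and 1.82, and after 3 d 2.35, 1.47 and 3.02. The means were 0.94 ± 0.21 (SD, n = 3), 1.55 ± 0.40 and 2.28 ± 0.78. Thus the TIA 3d values all lay above the Sham values against this list, which did not hold against the single genes below. Those of TIA 24h overlapped both groups, and no test was made of a score over the members. Of the 12 genes, 1, 1 and 3 had counts at or below the lane's median gene in TIA 24h replicates 1 to 3 and 0 in the other lanes, so the TIA 24h values rest in part on counts near the floor. So does the lowest Sham value, 0.74 in Sham replicate 3, where the lowest count of the 12 was 10 beside 8 for the median gene. Between Sham replicate 1 and TIA 3d replicate 2, alike in depth, the values were 1.16 and 1.47.

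Against single genes the order of the groups varied, and Sham overlapped TIA 3d for each. The highest Sham and lowest TIA 3d values were -0.18 and -0.20 minus Cx3cr1, 0.29 and 0.07 minus Csf1r, and 1.36 and 1.35 minus Tmem119. Minus Cx3cr1, the fractalkine receptor, the mean C1q value was -0.50 ± 0.28 in Sham, 0.30 ± 0.38 after 24 h and 0.80 ± 1.12 after 3 d. Without TIA 3d replicate 3 the last mean was 0.20, below that of TIA 24h, and without TIA 3d replicate 2 it was 1.30. Minus Tmem119, a microglial membrane protein, it was 1.07 ± 0.25, 1.84 ± 0.25 and 1.99 ± 0.77, and the last fell to 1.56 without TIA 3d replicate 3, so the order of the TIA groups rests on that lane for both genes. Minus Csf1r, the receptor for the microglial survival factor CSF1, it was 0.06 ± 0.20, 0.94 ± 0.75 and 0.45 ± 0.38, with TIA 24h the highest. Here TIA 24h replicate 3, in which Csf1r had 10 counts beside 8 for the median gene, gave the largest value of 1.72. The TIA 24h mean was 0.55 without it, and that of TIA 3d was 0.26 without TIA 3d replicate 3.

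**Figure D5:**
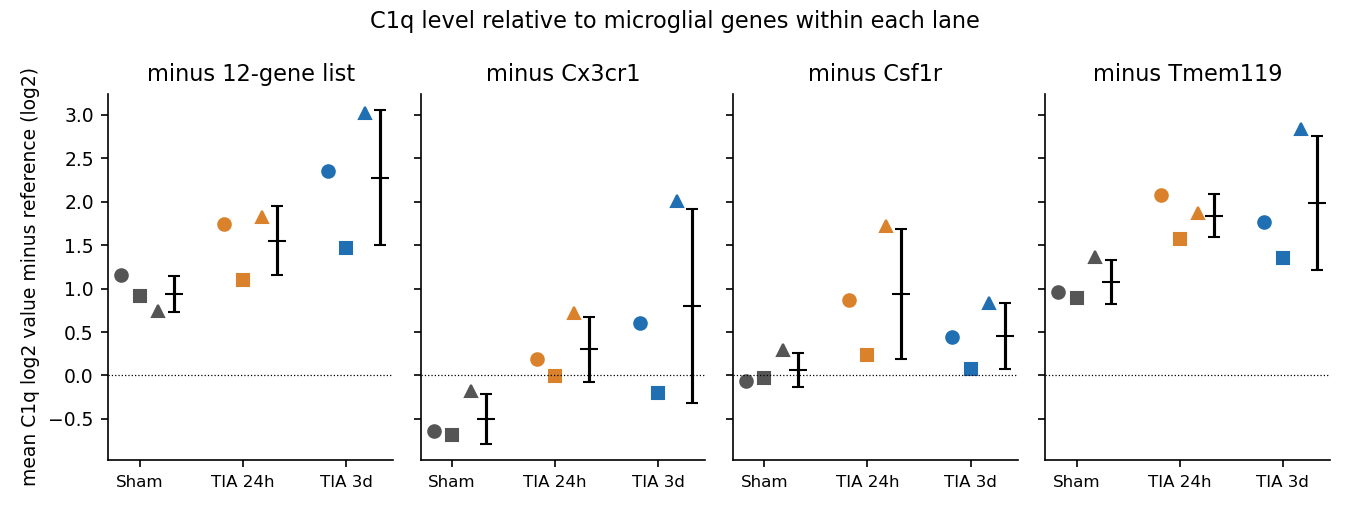
Mean log2 value of the 3 subunit genes minus that of a microglial reference in the same lane (y axis), for the 12-gene homeostatic list, Cx3cr1, Csf1r and Tmem119, in the 3 groups (x axis), with marker shapes for replicates 1 (circle), 2 (square) and 3 (triangle) and the mean ± SD as a bar. Against the 12-gene list the means are 0.94, 1.55 and 2.28, whereas against Csf1r TIA 24h is highest at 0.94.

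Markers of other cells made up smaller shares of the deeper TIA 3d lanes than of the TIA 24h lanes, while on this scale the median gene of the table was also lower at TIA 3d, by -1.19 as a log2 difference. Oligodendrocyte markers, 9 of 14 measured, summed to 0.496% to 5.72% of counts in Sham, 2.31% to 5.37% after 24 h and 0.293% to 0.578% after 3 d. In the fit of the deposited values, another scale than these shares, 4 of 9 fell from TIA 24h to TIA 3d, where 7.53% of the 757 genes were called lower. Under lane-total scaling 310 of all genes were called lower. Astrocyte markers, 5 of 9 measured, summed to 0.324% to 1.02%, 0.669% to 1.18% and 0.164% to 0.314% in the same order of groups. Markers of blood leukocytes, 11 of 18 measured, summed to 0.360% to 1.05%, 0.888% to 1.09% and 0.159% to 0.421%. Neuronal markers, 5 of 14 measured, summed to 0.184% to 0.473%, 0.320% to 0.648% and 0.0906% to 0.192%, and endothelial markers, 5 of 9 measured, to 0.164% to 0.518%, 0.467% to 0.524% and 0.0951% to 0.158%. Called lower between TIA 24h and TIA 3d were 2 of 11 blood, 1 of 5 astrocyte, 2 of 5 endothelial and 0 of 5 neuronal markers (limma on the deposited values, threshold 0.05), counts of few genes each beside the same 7.53%. Of 10 border macrophage markers 1 was measured, the scavenger receptor Cd163, at 11 to 33 counts in all lanes, so that C1q from border macrophages, which also make it, could not be told apart. The lowest recovered count was 1, held by up to 18 genes of a lane, and whether counts of 0 had been raised to 1 was not given in the sources used here. As counts, which were not scaled, these lists did not all fall from TIA 24h to TIA 3d. The oligodendrocyte markers summed to 183 to 587 counts after 24 h and 161 to 298 after 3 d, the astrocyte markers to 50 to 129 and 82 to 162, and the blood markers to 79 to 97 and 100 to 123. The neuronal markers summed to 33 to 47 counts after 24 h and 56 to 67 after 3 d, and the endothelial markers to 37 to 55 and 46 to 60. The part of these other cells in the C1q differences was not tested.

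Of 50 further complement genes listed, 9 were measured, and C1r, C1s, C2 and C4b were not among them. Between TIA 3d and TIA 24h, 2 of 9 rose and 0 fell, where 11.6% of all genes were called higher and 7.53% lower, so counts this small set the list apart from neither share. The median difference was 0.17 over the 9 and -0.25 over all genes. C3ar1, the receptor for the fragment C3a, had 111, 41 and 18 counts in Sham, 27, 16 and 27 after 24 h, and 365, 139 and 411 after 3 d, a log2 difference of 2.14 between TIA 3d and TIA 24h (SE 0.49, limma adjusted p = 0.0229). Itgam, which encodes the CD11b chain of the receptor CR3 and the protein used in the sort, had 142, 43 and 11 counts in Sham, 21, 14 and 7 after 24 h, and 141, 129 and 231 after 3 d (2.20, SE 0.60, limma adjusted p = 0.0334).

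The components downstream of C1q had few counts. C3, the central component, had 4 to 25 counts in all lanes and a difference of -0.82 between TIA 3d and TIA 24h (SE 0.56, limma adjusted p = 0.286). C4a had 2 to 30 counts (0.02, SE 0.63, adjusted p = 0.988). The other C4 gene listed, C4b, was not measured, so the C4a counts do not give the level of C4. C6, a part of the membrane attack complex, had 1 to 10 counts (0.17, SE 0.57, adjusted p = 0.85). Serping1, the C1 inhibitor, had 2 to 20 counts (0.12, SE 0.74, adjusted p = 0.923).

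Among the receptors, C5ar1, which binds C5a, had a difference of 0.64 (SE 0.47, limma adjusted p = 0.326), and Itgax, the CD11c chain of CR4, of -0.9996 (SE 0.44, adjusted p = 0.108). The counts of Itgax were 8, 9 and 10 after 24 h and 15, 9 and 14 after 3 d, near or below the median gene of each lane, and did not fall before scaling. Calr, calreticulin, a binding partner of C1q on cell surfaces, had 2.26 (SE 0.90, adjusted p = 0.0845). Against Sham, 0 of 9 passed in either comparison (limma; 0% of all genes), with medians of -0.49 at TIA 24h and -0.40 at TIA 3d.

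The genes whose log2 values followed the mean of the 3 subunits most closely over the 9 lanes were Ctss (cathepsin S, a lysosomal protease; r = 0.990), Mpeg1 (perforin-2 of macrophages; 0.990), Ctsf (cathepsin F; 0.986), Dock2 (an activator of Rac in leukocytes; 0.984) and Grn (progranulin; 0.980). The subunits themselves had r = 0.994 for C1qa with C1qb, 0.981 for C1qc with C1qb and 0.987 for C1qa with C1qc, and the median of the other 754 genes was -0.28. On the scale of log2 shares of the lane total the closest were Ctss (0.986), Mpeg1 (0.980), Lgmn (the lysosomal protease legumain; 0.962), Grn (0.962) and Tyrobp (the signalling adaptor DAP12; 0.958), and the median gene was at -0.77. These values describe lanes that share their depth and groups. Ctss had 820, 213 and 11 counts in Sham, 82, 39 and 19 after 24 h, and 2068, 984 and 2762 after 3 d, again with Sham replicate 1 nearest to TIA 3d replicate 2.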

How the data were processed

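Log2 values of 757 genes in 9 samples were deposited. Per the methods, the authors divided nCounter SPRINT counts of a mouse neuroinflammation panel (about 65 ng RNA) by the geometric mean of housekeeping probes chosen by geNorm in ROSALIND, and left out genes under the maximum of the negative controls. Whether the deposited table was so filtered, and a genome build, are not given in the sources used here. A 7 d group was not analysed here.

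In every lane, 2 to the power of each deposited log2 value was a whole multiple of one step (within 0.01 for 100% of values), which gave the whole counts. The lane factors ranged over 3.58-fold. Groups came from the sample titles. The log2 values of all 9 samples were fitted in limma 3.58.1 (R 4.3.3) without covariates, 1 mean for each group, and two-sided contrasts were adjusted by Benjamini-Hochberg over 757 genes, threshold 0.05. The fit was tested on simulated data. Ratios were compared by exact permutation tests (scipy 1.17.1) and given exact Clopper-Pearson intervals. Symbols were matched to RefSeq (GRCm38.p6), 750 directly and 7 by older symbols. Named were the members, the measured genes of a complement list, defining microglial genes and the 5 genes most like the members on each of 2 scales. Cd163 was named after its values were seen. The values of 1 further gene are not reported here. The members and lists were chosen with earlier results of these data known. The replicate numbers did not pair the samples (correlations of deviations between -0.24 and 0.27). Alternatives were other scalings, a filter at the 0.25 quantile, a replicate block, array weights, other priors, voom, depth as a covariate and leaving out each sample.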

Additional observations from a re-analysis of the deposited data

Results flagged for a closer look

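The mean of each subunit gene lay below that of Sham at 24 h and above it at 3 d, and neither difference from Sham passed the test. The difference of the changes, tested as the contrast of TIA 3d with TIA 24h, was 3.384 for C1qa, 3.342 for C1qb and 3.655 for C1qc on the log2 scale (limma adjusted p of 0.0229, 0.0245 and 0.0229). With the lane total as a covariate it was below 0 for each gene.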

How the results depend on the processing

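For the 9 subunit contrasts, quantile normalization turned TIA 24h against Sham to 0.17 for C1qa and 0.34 for C1qb and left TIA 3d against TIA 24h at 0.45, 0.34 and 0.59 for C1qa, C1qb and C1qc (limma adjusted p of 0.526, 0.658 and 0.502). The lane total as a covariate gave 0.066 for C1qa and 0.48 for C1qb at TIA 24h against Sham, -0.42, -0.64 and -0.41 at TIA 3d against Sham, and -0.49, -1.12 and -0.28 at TIA 3d against TIA 24h. Array weights gave 2.32, 2.53 and 2.44 at TIA 3d against Sham (limma adjusted p of 0.00561, 0.00626 and 0.00544). With these weights 174 genes of the table were called at TIA 3d against Sham, 109 higher and 65 lower, against 0 in the main fit. At TIA 3d against TIA 24h, with an intensity trend and robust prior C1qb stood at 3.34 (adjusted p = 0.0645), and an ordinary linear model without the prior gave 3.38, 3.34 and 3.65 (unmoderated fit in limma, adjusted p of 0.1, 0.118 and 0.0999). The causes were not tested. The count of genes called between TIA 3d and TIA 24h was 145 as reported, 344 under lane-total scaling, 385 with voom, 314 with array weights, 7 under quantile normalization and 0 with the lane total as a covariate or the ordinary model. Median-centred lanes split the calls into 123 higher and 21 lower, against 88 and 57.

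Leaving out 1 sample at a time, TIA 24h against Sham ranged from -1.92 to -0.14 for C1qa, -1.80 to 0.25 for C1qb and -2.14 to -0.30 for C1qc, lowest without Sham replicate 3 and highest without Sham replicate 1. TIA 3d against Sham, with the same lanes at its ends, ranged from 1.46 to 3.25 for C1qa, 1.55 to 3.59 for C1qb and 1.52 to 3.36 for C1qc. TIA 3d against TIA 24h ranged from 3.17 to 3.77, 3.01 to 3.89 and 3.23 to 3.98, and its calls were lost when TIA 24h replicates 2 and 3 and TIA 3d replicates 1 and 3 were each left out, where limma called 0 genes of the table. The log2 ratios at TIA 24h against Sham ranged from -0.41 (without TIA 24h replicate 3) to -0.095 (replicate 1) for C1qa/C1qb, from -0.79 (replicate 2) to -0.25 (replicate 1) for C1qc/C1qb and from -0.036 (replicate 3) to 0.54 (replicate 2) for C1qa/C1qc. At TIA 3d against TIA 24h, and with TIA 24h replicates again at the ends, they ranged from -0.12 (replicate 1) to 0.20 (replicate 3), from 0.093 (replicate 1) to 0.63 (replicate 2) and from -0.59 (replicate 2) to -0.016 (replicate 3). At TIA 3d against Sham they ranged from -0.34 (without Sham replicate 1) to -0.082 (replicate 3), from -0.23 (replicate 1) to -0.029 (replicate 3) and from -0.11 (replicate 1) to 0.0096 (replicate 2).

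The replicate block left the differences as they were, 3.384, 3.342 and 3.655 at TIA 3d against TIA 24h with limma adjusted p of 0.0106, 0.0124 and 0.0106, and gave 0.114 for each at TIA 3d against Sham, and changed no call of a member. For the ratios, exact permutation within replicate numbers, as a replicate block, gave p of 0.306, 0.361 and 0.639 for C1qa/C1qb, C1qc/C1qb and C1qa/C1qc. Subtraction of the lane median count, chosen after seeing the data, gave 3.73, 3.57 and 3.94 at TIA 3d against TIA 24h and turned the log2 ratio C1qa/C1qc at TIA 3d against Sham to 0.035. The difference between C1q and the homeostatic list kept its sign under the median of the list and without each sample in turn, but at TIA 3d against TIA 24h it moved from 0.73 to 0.36 without TIA 3d replicate 3 and to 1.13 without TIA 3d replicate 2. Depth limits the ratios in the 4 shallower lanes most, where a subunit gene had 22 to 162 counts.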
